A study of Mus musculus with 12 samples.

Results

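The 9 genes described here, Nfasc, Cntn1, Cntn2, Cntnap1, Cntnap2, Ank2, Ank3, Nrcam and Epb41l3, encode adhesion molecules and membrane scaffolds of the node of Ranvier and its flanking paranode and juxtaparanode. They are listed by symbol, and were chosen with earlier results of these data known. All 9 were found among the 30165 genes of the OPC table and among the 17918 genes of the neuron table. Expression was measured by RNA-seq in 12 libraries of mouse cortex, with 3 libraries for each of the groups OPC ctl, OPC dKO, Neuron ctl and Neuron dKO. OPCs (oligodendrocyte precursor cells) were captured on beads carrying antibodies to CD140, NG2 and O4, and neurons were collected as the cells left after beads had been used to remove cells carrying O4 (oligodendrocyte lineage), CD11b (microglia), CD31 (endothelial cells) or ACSA-2 (astrocytes). Cells of 2 mice were pooled in each library.

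The dKO mice carried NG2-CreERT2 and floxed alleles of the calcium channel genes Cacna1c (Cav1.2, exons 14 and 15) and Cacna1d (Cav1.3, exon 2). Tamoxifen at 100 mg/kg was given on postnatal days 7 and 8. WT is the labelled genotype of ctl mice, and the sources used here do not state which of these alleles they carried, whether they received tamoxifen, or the age at which the cells for sequencing were taken. CreERT2 was expressed from the NG2 locus (Cspg4), which is active in OPCs and in mural cells. The comparison of neurons asks what differs in the neuron fraction when the channels are deleted in NG2-expressing cells.

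At a node of Ranvier the myelin sheath is interrupted, and sodium channels of the axon are gathered in the gap. On each side, at the paranode, the glial form of neurofascin (from Nfasc) binds a complex of contactin-1 (Cntn1) and Caspr (Cntnap1) on the axon, which seals the myelin loops to it. Further away, at the juxtaparanode, contactin-2 (Cntn2) is present on both glia and axon and associates with Caspr2 (Cntnap2), which holds potassium channels there. Ankyrin-G (Ank3), ankyrin-B (Ank2) and the membrane-skeleton linker encoded by Epb41l3 tie these adhesion molecules to spectrin under the membrane. Nfasc, Cntn2 and the ankyrins are used by oligodendrocytes as well as by neurons.

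In the coordinates of the deposited OPC table, for which the labels name the build mm39, Cntn2 (ENSMUSG00000053024) lies on the minus strand at chr1:132437165-132470994. Nfasc (ENSMUSG00000026442) lies on the same strand at chr1:132492428-132669535. The 2 genes are neighbours, with 21433 bases and 0 genes of the table between them. The other members lie on 7 further chromosomes. These are Cntn1 at chr15:91949046-92239848, Cntnap1 at chr11:101061349-101081550, Cntnap2 at chr6:45036291-47281147, Ank2 at chr3:126715261-127292999, Ank3 at chr10:69234603-69863268, Nrcam at chr12:44375668-44648747 and Epb41l3 at chr17:69382678-69596984. Cntnap2 spans 2244857 bases and Cntnap1 20202 bases, while the summed exon length in the table ranged from 5875 bases for Cntnap1 to 35510 bases for Ank2.

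Promoter windows of RefSeq on GRCm38.p6, from 250 bases before to 50 bases after an annotated start, were matched for 7 of the 9 genes. Windows of Cntn2, Nfasc, Epb41l3 and Nrcam are shown, since these are 4 of the 5 genes whose ctl and dKO OPC libraries did not overlap in normalized counts (the other, Ank3, had no window matched). In these counts the first 3 were lower and Nrcam was higher in every dKO library. Capitals mark CG dinucleotides. The windows are chr1:132542891-132543190 (Cntn2, minus strand), chr1:132707277-132707576 (Nfasc, minus strand, 1 of 2 windows listed), chr17:69075427-69075726 (Epb41l3, plus strand, 1 of 3 listed) and chr12:44328635-44328934 (Nrcam, plus strand).
Cntn2: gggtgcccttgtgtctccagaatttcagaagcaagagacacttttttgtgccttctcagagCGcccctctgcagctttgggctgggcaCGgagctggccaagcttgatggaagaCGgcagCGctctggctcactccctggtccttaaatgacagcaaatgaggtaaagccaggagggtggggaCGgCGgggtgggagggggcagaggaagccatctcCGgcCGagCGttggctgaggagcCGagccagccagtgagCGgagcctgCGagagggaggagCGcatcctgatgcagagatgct
Nfasc: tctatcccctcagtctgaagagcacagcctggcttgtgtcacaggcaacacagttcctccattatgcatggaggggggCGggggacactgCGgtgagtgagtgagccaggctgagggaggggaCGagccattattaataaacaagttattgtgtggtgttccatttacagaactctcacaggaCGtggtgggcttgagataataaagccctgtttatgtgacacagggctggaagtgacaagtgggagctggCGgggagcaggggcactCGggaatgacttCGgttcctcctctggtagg
Epb41l3: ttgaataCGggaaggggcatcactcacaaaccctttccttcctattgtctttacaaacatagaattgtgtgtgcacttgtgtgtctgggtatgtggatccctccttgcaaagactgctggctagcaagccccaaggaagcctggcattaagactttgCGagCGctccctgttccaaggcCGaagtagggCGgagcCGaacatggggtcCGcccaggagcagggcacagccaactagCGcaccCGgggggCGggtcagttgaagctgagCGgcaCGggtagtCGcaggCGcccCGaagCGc
Nrcam: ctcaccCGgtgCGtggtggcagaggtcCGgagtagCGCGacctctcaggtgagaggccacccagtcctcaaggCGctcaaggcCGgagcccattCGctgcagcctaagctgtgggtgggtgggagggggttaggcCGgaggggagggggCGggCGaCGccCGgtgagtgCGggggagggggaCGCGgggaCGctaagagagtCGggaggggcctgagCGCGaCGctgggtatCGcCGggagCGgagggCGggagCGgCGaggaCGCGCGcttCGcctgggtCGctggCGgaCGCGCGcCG
The Nrcam window held 37 CG dinucleotides, more than 94.4% of the 32851 windows in the reference table. The windows of Epb41l3, Cntn2 and Nfasc held 16, 13 and 7, beside a median of 7 over all windows, 94.6% of which held at least 1. These counts describe the windows only, and no measurement of the promoters was made.

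The libraries were checked against markers of the cell types they could hold, as counts scaled to library size (CPM) and summed over each marker list. In the libraries labelled OPC, 10 markers of mature oligodendrocytes (Mbp, Mog and others) summed to 47730 to 83169 CPM, and 7 OPC markers (Pdgfra, Cspg4 and others) to 233 to 958 CPM. In the libraries labelled neuron, 7 endothelial markers (Cldn5, Slco1a4 and others) summed to 6496 to 15233 CPM and 10 neuron markers to 575 to 1442 CPM. Neither set was thus led by the cell type of its label, and "OPC libraries" and "neuron libraries" are used below as names of the labelled fractions. None of the 7 OPC, 10 neuron, 10 oligodendrocyte, 6 premyelinating, 6 astrocyte, 7 microglia, 7 endothelial or 6 mural markers had a mean normalized count under 10 in the ctl libraries of either fraction. The depth was 14935963 to 19812274 counts in OPC libraries and 15052901 to 16344585 counts in neuron libraries.

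The targeted genes were measured over their whole length, so that transcripts lacking the floxed exons were still counted. In OPC libraries the normalized count of Cacna1c was 373, 411 and 439 in ctl and 252, 337 and 312 in dKO, with every dKO library below every ctl library (log2 fold change -0.44 ± 0.15 SE, edgeR adjusted p = 0.349). For Cacna1d the counts were 251, 191 and 255 in ctl and 92.8, 153 and 232 in dKO, and the groups overlapped (log2 fold change -0.55 ± 0.31 SE, edgeR adjusted p = 0.531). Leaving out dKO replicate 1 gave -0.27 for Cacna1d, and leaving out dKO replicate 3 gave -0.93. Cspg4, whose locus drives the recombinase, differed by 0.14 ± 0.17 SE on the log2 scale, and by -0.0058 to 0.24 with single libraries left out. In neuron libraries the log2 fold changes were 0.44 ± 0.43 SE for Cacna1c and 0.80 ± 0.58 SE for Cacna1d, with adjusted p of 0.779 and 0.710 by edgeR, and the groups overlapped for both. Leaving out dKO replicate 1 gave 0.15 and 0.35, and the values ranged from 0.15 to 0.77 and from 0.35 to 1.20 over the libraries left out. Cspg4 had counts of 167, 140 and 63.2 in ctl and 43.1, 71.0 and 29.7 in dKO there, with an overlap of 1 library in each group (-1.36 ± 0.48 SE, edgeR unadjusted p = 0.0199, adjusted p = 0.521).

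Levels were first set side by side per length, as TPM, a gene's share of all transcripts after scaling by transcript length. In ctl OPC libraries, Cntn2 had the highest level of the 9 genes, at 488, 676 and 499 TPM (555 ± 106, mean ± SD, n = 3), and over all 6 libraries stood above 99.3% of the genes detected. Nfasc followed at 333, 481 and 349 TPM (387 ± 81.1). The genes of contactin-2 and of neurofascin, whose forms the OPC table does not separate, thus had the 2 highest levels, and their ctl ranges did not overlap with each other, with 488 against 481 TPM in the nearest libraries, or with the next gene.

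The linker Epb41l3 (140 ± 25.2 TPM, SD, n = 3) and the paranodal gene Cntn1 (110 ± 10.2 TPM) came next, and their ctl ranges overlapped. The ankyrin genes Ank2 (52.6 ± 11.1 TPM) and Ank3 (47.1 ± 7.32 TPM) also overlapped. Nrcam (10.4 ± 3.36 TPM), a nodal adhesion molecule of the L1 family, overlapped with Cntnap1 (7.75 ± 0.874 TPM). Cntnap2 was lowest, at 3.60 ± 1.24 TPM. The 2 lowest means were thus those of the Caspr genes, and in the other 5 steps of the order the ctl ranges did not overlap.

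In ctl neuron libraries the order was another one. Epb41l3 led with 20.8, 19.9 and 22.6 TPM (21.1 ± 1.37, mean ± SD, n = 3), followed by Cntn1 (15.2 ± 6.12), Ank2 (8.78 ± 1.59) and Nrcam (6.38 ± 1.68). Nfasc (4.63 ± 2.82), Ank3 (2.66 ± 0.737), Cntnap2 (2.58 ± 0.755) and Cntn2 (1.94 ± 0.740) were lower, and Cntnap1 was lowest at 0.410 ± 0.202 TPM. From Cntn1 down to Cntn2, each gene's ctl range overlapped with that of the next gene, so neighbours in this order were not resolved. The ranges of Cntn1, Ank2 and Nrcam lay wholly above those of Ank3, Cntnap2 and Cntn2. Epb41l3 lay above Cntn1, and Cntnap1 below Cntn2, in every ctl library.

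The 2 tables were counted in different ways, and so the ratio of their ctl means is a description without a test. This ratio, OPC over neuron, was 286 for Cntn2 and 83.6 for Nfasc. It lay between 5.99 and 18.9 for Cntnap1, Ank3, Cntn1, Epb41l3 and Ank2. The values of Nrcam (1.63) and Cntnap2 (1.39) were closest to 1. In the plot of TPM by library, the circles of Cntn2 and Nfasc therefore stand far above their triangles, while those of Cntnap2 lie next to each other.

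**Figure D1:**
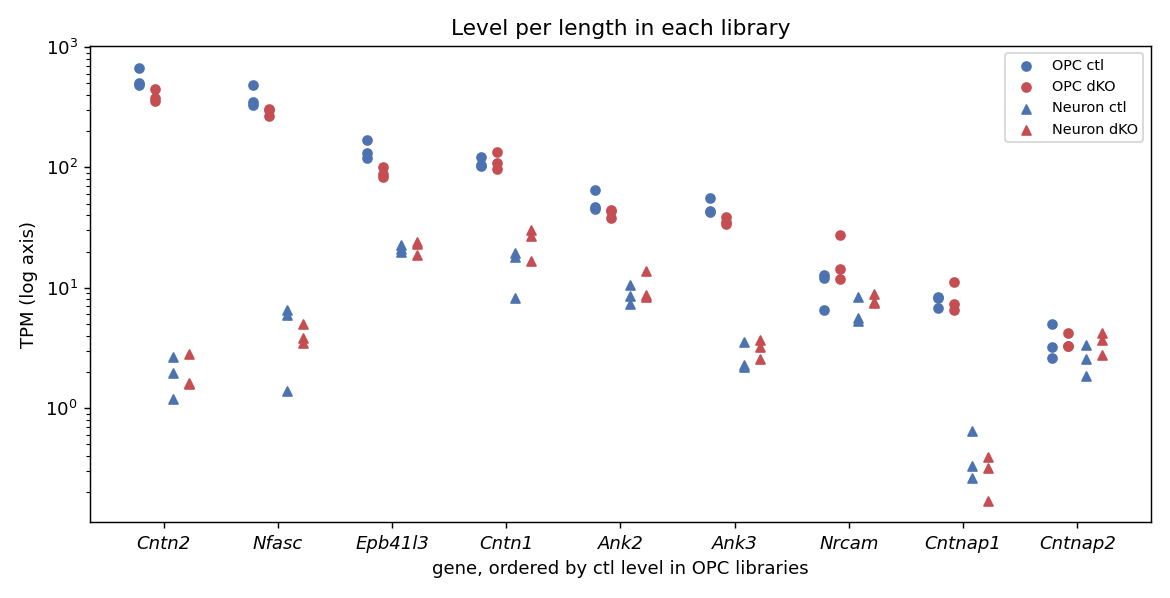
TPM on a log axis for the 9 genes in each of the 12 libraries (circles, OPC; triangles, neuron; blue, ctl; red, dKO). Cntn2 and Nfasc have the highest levels in OPC libraries and a mean of 1.94 and 4.63 TPM in ctl neuron libraries.

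The first comparison asked whether these genes differ between dKO and ctl in OPC libraries. None of the 9 genes passed edgeR's quasi-likelihood test at an adjusted p under 0.05 (0 of 9 with edgeR, and 0 of 9 with DESeq2), in a comparison in which edgeR called 0.00576% of the 17364 genes tested and DESeq2 called 1.69%. With edgeR, 2 of the 9 genes, Epb41l3 and Nrcam, had an unadjusted p under 0.05, beside 11.5% of all genes tested, and with DESeq2 also for Cntn2. The count of 2 became 1, with Epb41l3 remaining, without ctl replicate 1, ctl replicate 2 or dKO replicate 2. In 5 of the 9 genes the normalized counts of both groups did not overlap, beside 17% of all genes tested: Nfasc, Cntn2, Ank3 and Epb41l3 were lower and Nrcam was higher in all dKO libraries. On the TPM scale Nrcam overlapped, with 12.7 in ctl replicate 3 and 11.8 in dKO replicate 1, and Ank2 did not, with 45.3 as the lowest ctl and 44.7 as the highest dKO value. The median log2 fold change of the 9 genes was -0.24, that of all genes tested 0.01. In bulk libraries, fewer cells of a type and less RNA per cell cannot be told apart.

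Among the genes of the glial side, Nfasc had normalized counts of 22931, 32077 and 23520 in ctl and 22710, 22771 and 17297 in dKO. The highest dKO library lay just below the lowest ctl library, and ctl replicate 2 and dKO replicate 3 stood apart from the rest. The log2 fold change was -0.32 ± 0.20 SE (95% interval -0.78 to 0.13, edgeR adjusted p = 0.564), and -0.15 without ctl replicate 2. Cntn2 had counts of 22116, 29697 and 22167 in ctl and 21897, 17566 and 16076 in dKO. Here dKO replicate 1 was close to ctl replicates 1 and 3, and dKO replicates 2 and 3 were lower. The log2 fold change of Cntn2 was -0.41 ± 0.19 SE (95% interval -0.86 to 0.03, edgeR adjusted p = 0.461), and it was -0.26 without ctl replicate 2.

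Of the scaffolds, Epb41l3 had the smallest p of the 9 genes. Its counts were 7597, 10348 and 8241 in ctl and 6968, 5769 and 5267 in dKO, with 7597 in ctl and 6968 in dKO as the nearest values of the groups. The log2 fold change was -0.54 ± 0.17 SE (95% interval -0.92 to -0.16, edgeR unadjusted p = 0.0113, adjusted p = 0.313, and 0.0956 with DESeq2). With each library left out in turn it lay between -0.66 and -0.40, and the unadjusted p was at most 0.0435. Ank3 had counts of 7225, 9126 and 7160 in ctl and 7069, 6511 and 5419 in dKO, close together in the nearest libraries (log2 fold change -0.31 ± 0.16 SE, edgeR adjusted p = 0.495). Ank2 had counts of 7838, 10948 and 7962 in ctl and 7159, 8455 and 7032 in dKO, where dKO replicate 2 lay within the ctl range (log2 fold change -0.24 ± 0.17 SE, edgeR adjusted p = 0.609). Without ctl replicate 2 these values were -0.18 for Ank3 and -0.07 for Ank2.

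Nrcam went the other way. Its counts were 425, 753 and 809 in ctl and 832, 1949 and 883 in dKO. The groups did not overlap, but dKO replicate 2 held more than any other library, and the other dKO libraries were next to ctl replicates 2 and 3. The log2 fold change was 0.89 ± 0.36 SE (95% interval 0.07 to 1.70, edgeR unadjusted p = 0.0364, adjusted p = 0.406). It was 0.38 without dKO replicate 2 and 0.65 without ctl replicate 1, with unadjusted p of 0.158 and 0.114 by edgeR.

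For Cntn1 and the Caspr genes Cntnap1 and Cntnap2 the groups overlapped in OPC libraries. Cntn1 had counts of 5575, 4635 and 4656 in ctl and 4828, 6753 and 4748 in dKO, with dKO replicate 2 highest (log2 fold change 0.14 ± 0.17 SE, edgeR adjusted p = 0.795). Cntnap1 had counts of 234, 187 and 233 in ctl and 203, 231 and 300 in dKO (log2 fold change 0.16 ± 0.19 SE, edgeR adjusted p = 0.780). Cntnap2 had counts of 248, 125 and 158 in ctl and 178, 178 and 197 in dKO, all within the ctl range (log2 fold change 0.05 ± 0.25 SE, edgeR adjusted p = 0.957). The sign of each of these 3 values turned when single libraries were left out. Their 95% intervals, -0.25 to 0.52, -0.27 to 0.60 and -0.53 to 0.63, include differences in both directions.

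**Figure D2:**
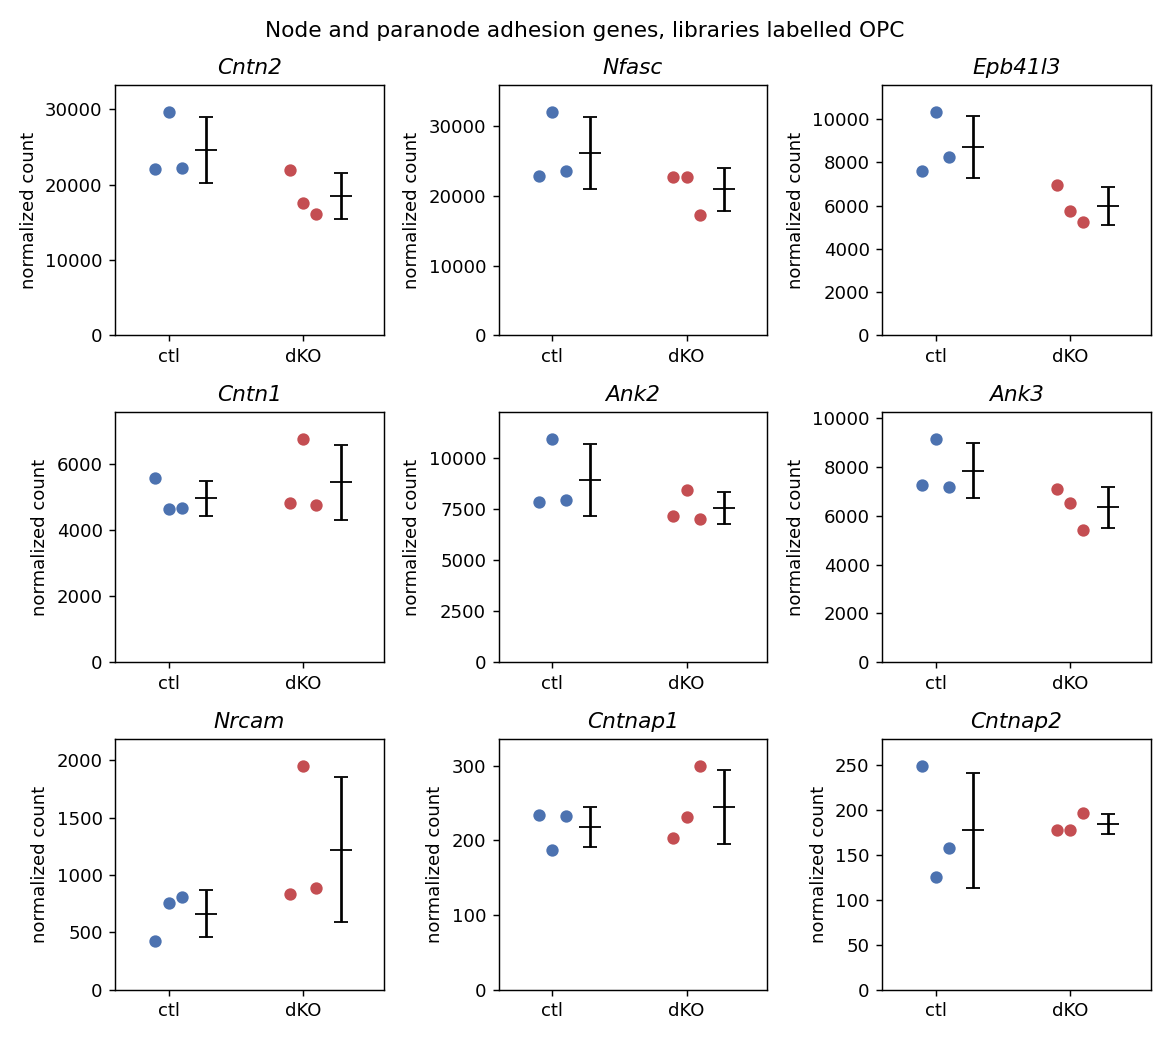
Normalized counts of the 9 genes in OPC libraries, with 1 point per library (blue, ctl; red, dKO) and the mean ± SD of 3 libraries beside them; each axis starts at 0. Nfasc, Cntn2, Ank3 and Epb41l3 are lower in all dKO libraries, and the single high point of Nrcam is dKO replicate 2 at 1949.

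Values of cell type markers moved with these genes from library to library. Centred on each gene's own mean of log2 CPM, ctl replicate 2 held the highest value of Nfasc (0.47), Cntn2 (0.49), Ank2 (0.43), Ank3 (0.38) and Epb41l3 (0.53), and also of the mean of the oligodendrocyte markers (0.39). dKO replicate 3 held the lowest value of each, at -0.42, -0.40, -0.21, -0.37 and -0.45, beside -0.53 for the markers. Of the 10 oligodendrocyte markers, 8 were lower and 2 (Mbp and Mobp) were higher in dKO, none with an adjusted p under 0.05. Their median log2 fold change was -0.43. Their summed level ranged from 64840 to 75885 CPM in ctl and from 47730 to 83169 CPM in dKO, and none was at or near 0. An unadjusted p under 0.05 by edgeR was found for 3 of them (Mog, Opalin, Aspa), beside 11.5% of all genes tested. It was also found for 7 of 7 microglia, 5 of 6 astrocyte, 2 of 10 neuron, 1 of 7 OPC and 1 of 6 premyelinating markers. For endothelial and mural markers the count was 0.

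Taken as a log2 ratio to the mean of the oligodendrocyte markers, a description chosen after the values had been seen, the groups overlapped for Nfasc, Cntn2, Ank2, Ank3 and Epb41l3. The difference of dKO minus ctl in this ratio was 0.06 for Nfasc, -0.03 for Cntn2, 0.15 for Ank2, 0.07 for Ank3 and -0.16 for Epb41l3. For Cntn1, Cntnap1 and Cntnap2, whose groups overlapped as well, it was 0.50, 0.53 and 0.49, beside log2 fold changes of 0.14, 0.16 and 0.05. For Epb41l3 the ratio was -2.38, -2.30 and -2.39 in ctl and -2.62, -2.58 and -2.36 in dKO, so that only dKO replicate 3 lay among the ctl values. For Nrcam the difference in this ratio was 1.20, and its groups remained apart, from -6.54 to -5.74 in ctl and from -5.69 to -4.14 in dKO. The divisor weighs each marker alike, whatever its level. It was lowest in dKO replicate 3 (-0.53, centred), whereas the summed markers overlapped and were highest in dKO replicate 1 (83169 CPM). A change of RNA per oligodendrocyte that the markers share would also be divided out. The part of cell composition in the lower values was therefore not tested.

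Nrcam and Cntn1 had their highest values in dKO replicate 2, centred at 1.20 and 0.39. The same library held the highest mean of the 7 OPC markers (1.02) and of the 6 astrocyte markers (1.01). ctl replicate 1 held the lowest value of Nrcam (-0.99) and the lowest mean of both marker lists (-0.88 and -0.67). Cntn1 was not low in that library, where it had its highest ctl value (0.11). The means of the 10 neuron markers (-0.23 and 0.39) and of the 6 premyelinating markers (-0.28 and 0.42) were also lowest in ctl replicate 1 and highest in dKO replicate 2. The summed neuron markers ranged from 91.8 to 117 CPM in ctl and from 107 to 151 CPM in dKO (9 of 10 higher, median 0.43), and the summed premyelinating markers from 1594 to 1712 CPM and from 1316 to 2423 CPM (4 of 6 higher, median 0.31). The summed OPC markers ranged from 233 to 483 CPM in ctl and from 424 to 958 CPM in dKO, with 7 of 7 higher in dKO and a median log2 fold change of 0.62. The summed astrocyte markers ranged from 845 to 1473 CPM and from 1412 to 4263 CPM, with 6 of 6 higher and a median of 0.93. None of these markers was at or near 0, and their part in the values of Nrcam and Cntn1 was not tested. Microglia markers were also higher in dKO (7 of 7, median 1.41, 192 to 228 CPM in ctl and 242 to 811 CPM in dKO). The summed endothelial markers ranged from 1084 to 1564 CPM in ctl and from 879 to 2412 CPM in dKO (7 of 7 higher, median 0.23). The summed mural markers ranged from 886 to 1266 CPM and from 756 to 1545 CPM (4 of 6 higher, median 0.23). The centred means of these last lists were lowest in dKO replicate 2 (-0.73 and -0.65). The part of the microglia, endothelial and mural markers was not tested either.

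**Figure D3:**
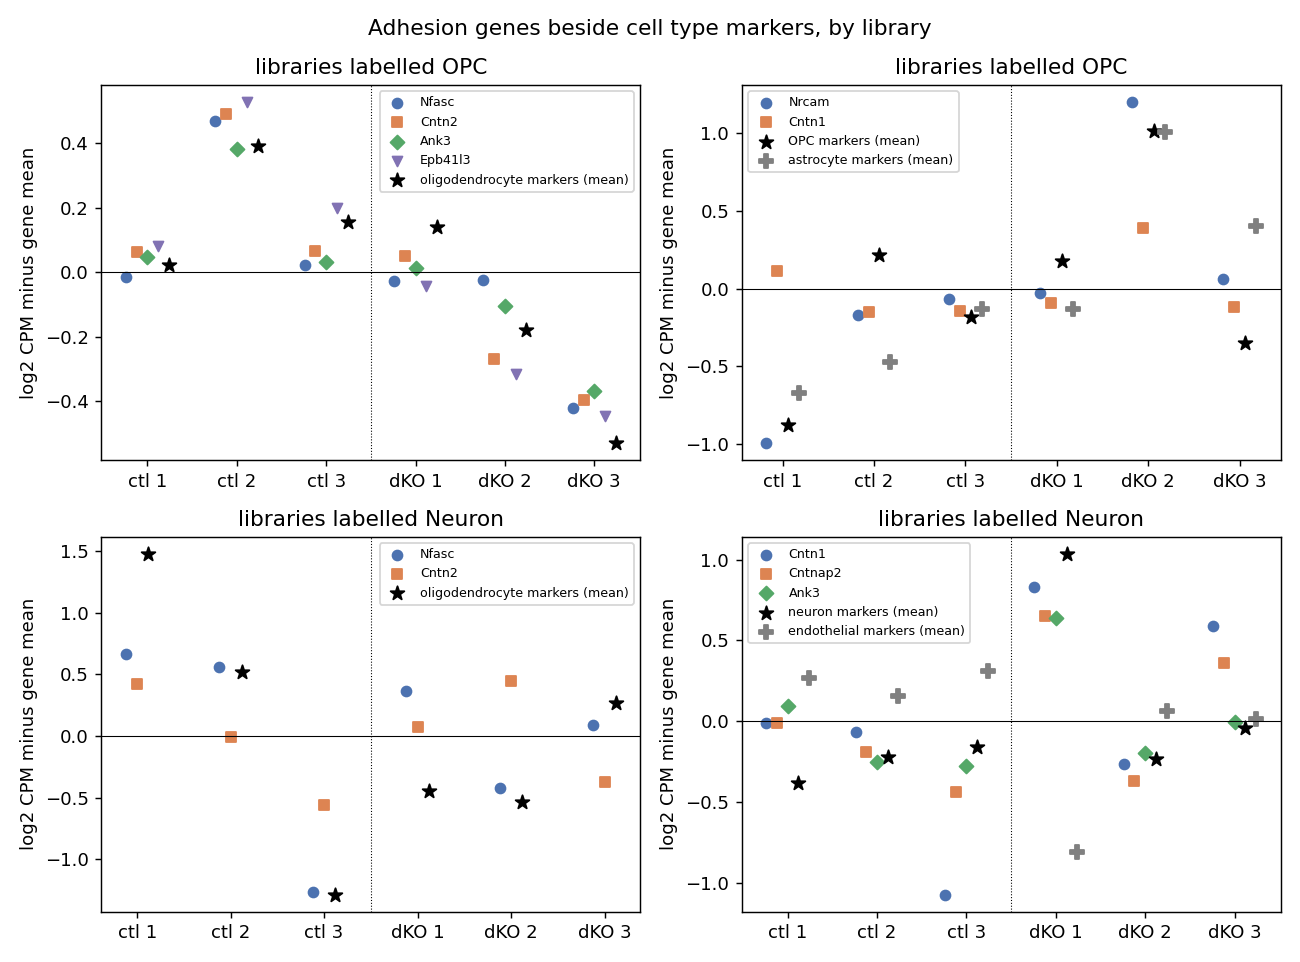
Log2 CPM minus each gene's mean over 6 libraries, for adhesion genes (coloured) and for the mean of marker lists (black and grey), in OPC (top) and neuron (bottom) libraries. Nfasc, Cntn2, Ank3 and Epb41l3 follow the oligodendrocyte markers from 0.39 in OPC ctl 2 to -0.53 in dKO 3, and Nrcam is highest, at 1.20, where OPC and astrocyte markers are.

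The likeness among the members was described by the root mean square difference of these centred values over the 6 OPC libraries, in which the groups are included. The closest pairs were Nfasc with Ank3 (0.06), Cntn2 with Epb41l3 (0.07) and Cntn2 with Ank3 (0.08), and the most distant pair was Nrcam with Epb41l3 (0.84). Among all genes tested, those most like Cntn2 were Grb14 (0.02) and Ttyh2 (0.03). Those most like Nfasc were Fam102a (0.02) and 9330188P03Rik (0.03).

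The second comparison asked whether the genes differ in neuron libraries. These also held RNA of the cell types in which the NG2 locus is active, with 612 to 1469 CPM of summed mural markers and 109 to 159 CPM of summed OPC markers. None of the 9 genes passed at an adjusted p under 0.05 with edgeR or with DESeq2, where edgeR called 0% and DESeq2 called 0.613% of the 14352 genes tested. With edgeR, 0 of the 9 genes had an unadjusted p under 0.05, beside 9% of all genes tested, and for 1, Cntn1, with DESeq2. The count became 2 without ctl replicate 1 (Cntn1 and Nrcam) and 1 without dKO replicate 2 (Cntn1) or dKO replicate 3 (Ank2). In 0 of the 9 genes were the groups apart, beside 15.3% of all genes tested. The log2 fold change was above 0 for 7 of the genes and below 0 for Nfasc and Cntnap1, with a median of 0.33, beside 0.01 for all genes tested.

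Cntn1, a paranodal partner of glial neurofascin, had the largest difference. Its normalized counts were 986, 949 and 473 in ctl and 1771, 827 and 1502 in dKO. Replicates 1 and 3 of dKO were above all ctl libraries, and dKO replicate 2 lay within the ctl range. The log2 fold change was 0.77 ± 0.34 SE (95% interval -0.00488 to 1.54, edgeR unadjusted p = 0.0512, adjusted p = 0.554). It ranged from 0.50 (without ctl replicate 3) to 1.03 with each library left out in turn.

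Cntnap2 had counts of 92.4, 81.7 and 68.6 in ctl and 147, 71.9 and 120 in dKO, and again dKO replicate 2 lay within the ctl range (log2 fold change 0.48 ± 0.35 SE, edgeR adjusted p = 0.706). Nrcam had counts of 727, 485 and 497 in ctl and 870, 609 and 723 in dKO, with ctl replicate 1 above 2 of the dKO libraries (log2 fold change 0.36 ± 0.21 SE, edgeR adjusted p = 0.640). Ank2 had counts of 1049, 943 and 1193 in ctl and 1380, 1619 and 1012 in dKO, where dKO replicate 3 lay within the ctl range (log2 fold change 0.33 ± 0.19 SE, edgeR adjusted p = 0.641). Ank3, the scaffold of the axon initial segment and the node, had its highest count in dKO replicate 1. Its counts were 400, 315 and 310 in ctl and 586, 328 and 374 in dKO (log2 fold change 0.33 ± 0.24 SE, edgeR adjusted p = 0.714). Without dKO replicate 1 the values fell to 0.04 for Ank3, 0.24 for Cntnap2 and 0.22 for Nrcam, and without dKO replicate 2 that of Ank2 fell to 0.17. The highest values were 0.72 for Cntnap2 without dKO replicate 2, 0.58 for Nrcam without ctl replicate 1, and 0.50 for Ank2 without dKO replicate 3.

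The remaining 4 genes showed smaller or less precise differences. Epb41l3 had the smallest SE, with counts of 710, 698 and 881 in ctl and 849, 771 and 814 in dKO (log2 fold change 0.09 ± 0.15 SE, 95% interval -0.24 to 0.42, edgeR adjusted p = 0.880). It was 0.03 without ctl replicate 2, 0.20 without ctl replicate 3 and 0.94 when only curated RefSeq transcripts were summed. Nfasc varied most between ctl libraries, with counts of 557, 518 and 146 in ctl and 454, 262 and 374 in dKO (log2 fold change -0.17 ± 0.44 SE, edgeR adjusted p = 0.934). Cntn2 had counts of 226, 168 and 115 in ctl and 178, 231 and 130 in dKO (log2 fold change 0.08 ± 0.33 SE, edgeR adjusted p = 0.959). With curated transcripts only its value was 0.44. Cntnap1 was counted 9 to 29 times per library, and its interval was the widest of the 9 (log2 fold change -0.38 ± 0.61 SE, 95% interval -1.76 to 1.00, edgeR adjusted p = 0.878). The signs of Nfasc, Cntn2 and Cntnap1 turned when single libraries were left out.

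**Figure D4:**
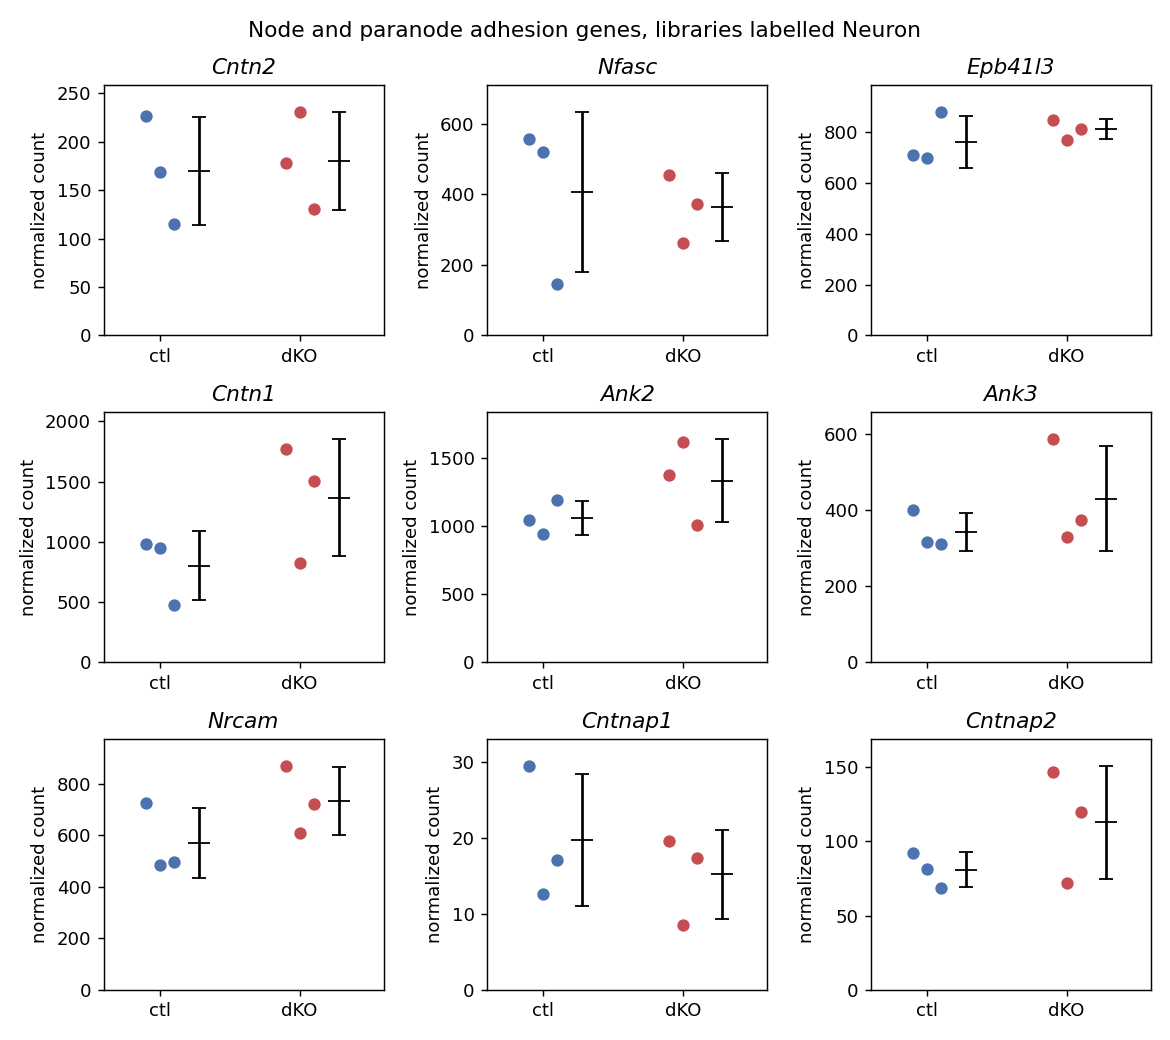
Normalized counts of the 9 genes in neuron libraries, drawn as for the OPC libraries (blue, ctl; red, dKO; mean ± SD of 3 libraries). The groups overlap in all 9 genes, and the low ctl point of Nfasc (146) and of Cntn1 (473) is ctl replicate 3.

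**Figure D5:**
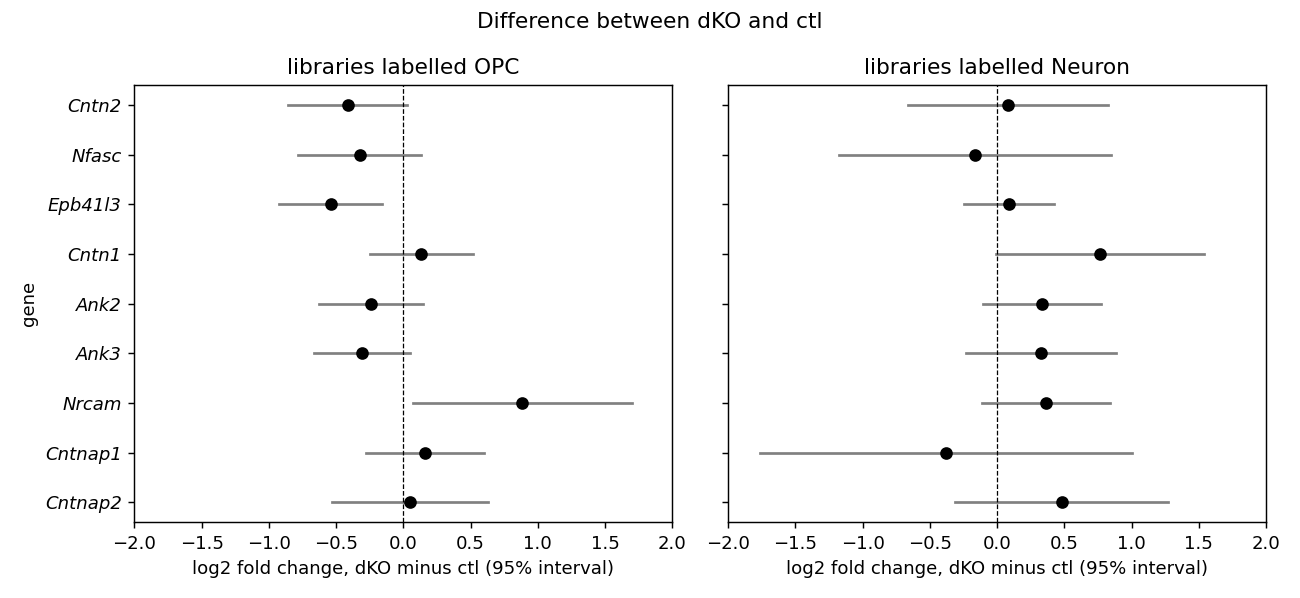
Log2 fold change of dKO minus ctl with its 95% interval for the 9 genes in OPC (left) and neuron (right) libraries. The intervals of Epb41l3 (-0.92 to -0.16) and Nrcam (0.07 to 1.70) in OPC libraries do not reach 0, and those of the other genes do.

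Markers of other cells differed between neuron libraries as well. The mean of the oligodendrocyte markers, centred, ran from 1.48 in ctl replicate 1 and 0.52 in ctl replicate 2 to -1.29 in ctl replicate 3. Nfasc had its 2 highest values (0.66 and 0.56) and its lowest (-1.26) in the same libraries. In dKO replicates 1, 2 and 3 Nfasc stood at 0.37, -0.42 and 0.09, and the oligodendrocyte markers at -0.44, -0.53 and 0.27. Over the ctl libraries the mural markers stood at 0.52, 0.35 and -0.90, and the OPC markers at 0.32, 0.49 and -0.42. The premyelinating markers were at 0.84, 0.78 and -0.97 there, with sums of 115 to 237 CPM in ctl and 90.1 to 142 CPM in dKO (5 of 6 lower, median -0.73). The summed OPC markers ranged from 109 to 142 CPM in ctl and from 146 to 159 CPM in dKO, with 3 of 7 higher and a median of -0.16. The summed oligodendrocyte markers ranged from 782 to 4039 CPM in ctl and from 1180 to 1950 CPM in dKO, with 10 of 10 lower in dKO, a median log2 fold change of -0.88 and none at or near 0. dKO replicate 1 held the highest mean of the 10 neuron markers (1.04) and the lowest of the 7 endothelial markers (-0.81), and also the highest value of Cntn1 (0.83), Cntnap2 (0.65), Ank3 (0.64) and Nrcam (0.45). The summed neuron markers ranged from 575 to 795 CPM in ctl and from 792 to 1442 CPM in dKO (10 of 10 higher, median 0.57). The summed endothelial markers ranged from 13003 to 15233 CPM and from 6496 to 11861 CPM (7 of 7 lower, median -0.39). The means of the astrocyte (-0.82) and microglia (-0.97) markers were likewise lowest in dKO replicate 1 and were highest in ctl replicate 1 (1.11 and 1.38). The summed astrocyte markers ranged from 333 to 857 CPM in ctl and from 236 to 441 CPM in dKO (5 of 6 lower, median -0.54), and the summed microglia markers from 322 to 1414 CPM and from 299 to 814 CPM (7 of 7 lower, median -0.64). The part of these markers in the values of the adhesion genes was not tested.

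Within the neuron table the counts of a gene are sums over RefSeq transcripts, of which Cntn2 had 2, Cntnap1 3, Cntnap2 4, Cntn1 8, Ank3 and Nfasc 34 each, Epb41l3 43, Nrcam 45 and Ank2 52. In Cntn1, 2 transcripts held 90% of the estimated count, and curated transcripts held 94.6%. In Ank2, 33 transcripts were needed for 90%, and the leading one held 10.6%. Predicted models, not curated ones, held most of the count of Epb41l3 (curated 7.84%), Nfasc (16%), Ank2 (21.9%), Nrcam (22.8%) and Ank3 (41.0%), and all of that of Cntnap1. The share of the leading transcript moved widely between libraries, from 25.9% to 71.7% in Cntn1 and from 6.36% to 35.9% in Nfasc, so isoforms were not compared between groups. With curated transcripts only, 8 of the 9 genes could be tested, and the log2 fold changes of Epb41l3 and Nrcam were 0.94 and 0.67, with unadjusted p of 0.0495 and 0.0489 by edgeR and adjusted p of 0.679 for both.

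By the same measure of likeness over the 6 neuron libraries, the closest pairs of members were Ank3 with Nrcam (0.14), Cntnap2 with Ank3 (0.18) and Cntnap2 with Nrcam (0.21). The genes most like Epb41l3 among all tested were Ddx1 and Phf5a (0.04 each). Those most like Cntn1 were Rgs11 (0.07) and Sema3f (0.08).

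Other genes of the node and the paralogs of the 9 genes were counted from 5 lists with 58 genes. In OPC libraries 51 of them were tested, and 0 passed at an adjusted p under 0.05 with edgeR or DESeq2. Of these, 6 with higher and 4 with lower counts in dKO, 10 in all, had an unadjusted p under 0.05, beside 11.5% of all genes tested, and 5 had one without dKO replicate 2. Their median log2 fold change was 0.17. In neuron libraries 54 were tested, 0 passed with either tool, and 3 had an unadjusted p under 0.05 with edgeR, beside 9% of all genes tested, and 7 with DESeq2. The count of 3 became 1 without ctl replicate 1, 4 without dKO replicates 1 or 2, 6 without dKO replicate 3 and 9 without ctl replicate 3.

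Sodium channel subunits, which the node gathers, were all 8 tested in both fractions. In OPC libraries 5 were higher and 3 lower in dKO (median log2 fold change 0.33). The beta subunit gene Scn4b had counts of 142, 167 and 191 in ctl and 137, 81.7 and 120 in dKO, all below ctl (-0.56 ± 0.24 SE, edgeR unadjusted p = 0.0455, adjusted p = 0.432, and -0.37 without dKO replicate 2). In neuron libraries all 8 log2 fold changes were above 0, none with an unadjusted p under 0.05. The pore subunit genes Scn2a (0.94 ± 0.49 SE) and Scn8a (0.69 ± 0.37 SE) had the smallest p, each with its highest count in dKO replicate 1. Without that library they were 0.41 and 0.12, and 6 of the 8 values were above 0.

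Of the 15 potassium channel genes and partners, 7 were higher and 8 lower in dKO OPC libraries (median 0.00), and 4 higher and 11 lower without dKO replicate 2. Adam22, a receptor for Lgi proteins, had counts of 1731, 2148 and 1887 in ctl and 1565, 1591 and 1461 in dKO, which did not overlap (-0.32 ± 0.11 SE, edgeR unadjusted p = 0.0211, adjusted p = 0.362). Kcna2, a juxtaparanodal channel, was next (-0.44 ± 0.17 SE, edgeR unadjusted p = 0.0322), at -0.28 without ctl replicate 2. The secreted Lgi3 had the highest level of the list, with 623 ± 140 TPM in ctl and 450 ± 80.6 TPM in dKO (SD, n = 3), and its groups overlapped. In neuron libraries 14 were tested, 8 higher and 6 lower, 0 with an unadjusted p under 0.05. The split was 6 higher and 8 lower without dKO replicate 1 and 11 and 3 without dKO replicate 2. The smallest p values were those of Lgi1 (0.90 ± 0.41 SE) and the scaffold Dlg2 (0.95 ± 0.45 SE), which were 0.24 and 0.23 without dKO replicate 1, and Dlg1 had the highest level (20.8 ± 2.09 TPM in ctl).

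All 4 spectrin genes had log2 fold changes above 0 in OPC libraries (median 0.14), and 3 of them when dKO replicate 2 or dKO replicate 3 was left out. Sptbn4, the beta spectrin of nodes and initial segments, had counts of 189, 207 and 225 in ctl and 377, 461 and 243 in dKO, all above ctl (0.80 ± 0.23 SE, edgeR unadjusted p = 0.00742, adjusted p = 0.310). Sptan1 differed by 0.15 ± 0.18 SE, and Sptbn1 had the highest level, at 262 ± 17.2 TPM in ctl and 271 ± 41.6 TPM in dKO. In neuron libraries Sptbn1 had counts of 22113, 18752 and 16106 in ctl and 12328, 15857 and 14616 in dKO, all below ctl (-0.41 ± 0.18 SE, edgeR unadjusted p = 0.0515, adjusted p = 0.554).

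Of the matrix and glial ligand genes, 15 of 16 were tested in OPC libraries, 12 higher and 3 lower in dKO (median 0.36), and 9 and 6 without dKO replicate 2. Hapln1, a link protein of the hyaluronan matrix, had counts of 18.4, 57.2 and 70.0 in ctl and 94.8, 191 and 126 in dKO, all above ctl (1.51 ± 0.47 SE, edgeR unadjusted p = 0.0108, adjusted p = 0.313). Ncan (neurocan) was next (1.00 ± 0.39 SE, edgeR unadjusted p = 0.0336), at 0.44 without dKO replicate 2. Like Nrcam, both had their highest count in dKO replicate 2 and their lowest in ctl replicate 1. Mag, the myelin-associated glycoprotein of the innermost myelin layer, had the highest level, with 2486 ± 496 TPM in ctl and 1808 ± 287 TPM in dKO, and overlapped between the groups by counts (-0.37 ± 0.23 SE, edgeR adjusted p = 0.561, and -0.21 without ctl replicate 2).

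In neuron libraries 15 of these genes were tested, 6 higher and 9 lower (median -0.07), and 8 and 7 without ctl replicate 1 or dKO replicate 1. With curated transcripts only, 13 were tested, 8 higher and 5 lower. Ncan had counts of 1211, 1593 and 1412 in ctl and 2128, 2212 and 1942 in dKO, all above ctl (0.58 ± 0.15 SE, edgeR unadjusted p = 0.00389, adjusted p = 0.521). Hapln2, a nodal link protein made by oligodendrocytes, had counts of 108, 17.5 and 25.7 in ctl and 14.7, 13.3 and 10.2 in dKO (-1.97 ± 0.75 SE, edgeR unadjusted p = 0.0283, adjusted p = 0.521). Its high count lay in ctl replicate 1, the library with the highest oligodendrocyte markers, and the value was -0.76 without it. Cadm1 had the highest level of the list (68.1 ± 10.6 TPM in ctl).

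Among the 15 paralogs, 9 were tested in OPC libraries, 7 higher and 2 lower in dKO (median 0.14). Epb41, of the same family as Epb41l3, had counts of 599, 432 and 493 in ctl and 659, 682 and 757 in dKO, all above ctl (0.46 ± 0.14 SE, edgeR unadjusted p = 0.0115, adjusted p = 0.315), whereas Epb41l3 was lower in all dKO libraries. Cntn3 differed by -0.64 ± 0.26 SE (edgeR unadjusted p = 0.0356). Epb41l2 had the highest level, at 76.3 ± 11.6 TPM in ctl and 77.8 ± 5.71 TPM in dKO. In neuron libraries 13 were tested, 10 higher and 3 lower (median 0.19). The split became 5 higher and 8 lower without dKO replicate 1, 7 and 6 without ctl replicate 1, and 8 and 5 without ctl replicate 2. Cntn4 had counts of 33.5, 35.0 and 9.64 in ctl and 97.0, 89.0 and 28.7 in dKO (1.45 ± 0.63 SE, edgeR unadjusted p = 0.0498, adjusted p = 0.554), and Cntnap4 differed by 1.03 ± 0.47 SE. Epb41 had the highest level (35.3 ± 12.5 TPM in ctl).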

How the data were processed

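The 9 genes and all lists were chosen with earlier results of these data known. The OPC table that the authors deposited holds whole-number read counts and FPKM values, each by Ensembl gene. Their methods name HISAT2 (GRCm38) and featureCounts, whereas the labels name mm39, and the coordinates are not those of GENCODE M21 (same start and end for 2.09% of matched identifiers). For neurons the authors deposited estimated counts and TPM values per RefSeq transcript (66298 transcripts). The program that made them is not given in the sources used here. The columns of the authors' own fold changes and p-values were not used. The library kit (TruSeq v2, poly(A)) does not mark strand, so reads of overlapping antisense genes cannot be told apart.

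Neuron counts were summed per Entrez gene and rounded, and 17794 of 17918 genes were given a symbol. The rest had 0.0441% of all neuron counts. The FPKM values were rescaled to TPM. Within each fraction, dKO was compared with ctl by the quasi-likelihood test of edgeR 4.0.16 (R 4.3.3) for genes whose TMM-normalized counts averaged 10 or more, with Benjamini-Hochberg adjustment over all genes tested, at 0.05. SE was obtained as the ratio of the log2 fold change to the root of F. Normalized counts are on the TMM scale, and centred values used log2 CPM with a prior count of 1. Biological variation, from the dispersion common to all genes, was 20.5% in OPC and 27.7% in neuron libraries. Replicates differed by more than sampling noise (chi-square per gene of at least 15.7). Each library is a pool of 2 mice, and p-values measure the spread between 3 such pools. An exact permutation test of 3 against 3 libraries cannot give a p under 0.1 and was not used.

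The test was tried on simulated counts in which 200 genes differed by 2 on the log2 scale. It called 168 of them in OPC and 171 in neuron simulations, with 14 and 12 unchanged genes called. The largest log2 fold change of the 9 genes was 0.89, for Nrcam in OPC libraries. Recovery of changes of that size was not tried. Alternatives were DESeq2 1.42.0, its size factors in edgeR, no filter, a replicate block, curated transcripts only and each library left out. Named are all 9 genes, the targeted genes and Cspg4, and, from each list and fraction, the 2 genes with the smallest p and the gene with the highest TPM, some of which are not reported here. Marker genes named singly were chosen after their values were seen.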

Additional observations from a re-analysis of the deposited data

How the results depend on the processing

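No member and no other node gene passed the adjusted threshold under any alternative run in either fraction. Their counts at an unadjusted p under 0.05 moved. In OPC libraries, leaving out each library in turn gave 1 to 3 members and 5 to 14 other node genes. In neuron libraries it gave 0 to 2 members and 1 to 9 other node genes, and DESeq2 gave 1 and 7, no filter on low counts 1 member, and curated transcripts only 2 members. Over all genes, calls in OPC libraries were 293 with DESeq2, 87 without the filter and 1 to 201 with each library left out, and in neuron libraries 88 with DESeq2. The cause was not tested.

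With the replicate number as a block, 27 genes were called in OPC libraries and 1 member, Nrcam, had an unadjusted p under 0.05 in neuron libraries. The deviations of same-numbered libraries correlated at -0.11, 0.15 and 0.11 in OPC and at 0.17, -0.08 and -0.08 in neuron libraries. With 3 libraries per group, these values cannot decide whether the numbers pair the samples.

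For the genes named singly, the sign of the log2 fold change turned for 5 genes in each fraction with single libraries left out, and not under the other alternatives. In the lists of other node genes, signs also turned without the filter, with the block and with curated transcripts only. The ranges with single libraries left out were -0.050 to 0.23 for Cntn1, -0.019 to 0.28 for Cntnap1, -0.14 to 0.38 for Cntnap2, -0.0058 to 0.24 for Cspg4 and -0.038 to 0.29 for Sptan1 in OPC libraries. In neuron libraries they were -0.57 to 0.13 for Nfasc, -0.14 to 0.34 for Cntn2, -0.62 to 0.028 for Cntnap1, -0.14 to 0.0049 for Cadm1 and -0.088 to 0.48 for Epb41. Depth limits Cntnap1 most, with 9 to 29 reads per neuron library.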
